A study of Mus musculus with 6 samples.

Results

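The mitochondrial ribosomal protein genes are the nuclear genes that encode the protein subunits of the ribosome inside mitochondria, and their expression was compared here between a pluripotent and an insulin-producing mouse cell line. Members were chosen by name, as the probes whose gene symbol in the platform annotation starts with Mrpl (large subunit) or Mrps (small subunit). This gave 132 of 45281 probes and 76 of 19057 genes, 50 of whose products sit in the large subunit and 26 in the small subunit. The products of Mrps30 and Mrps18a carry a small-subunit name but sit in the large subunit, and both were counted there. Among the protein-coding mouse genes of RefSeq 78 have these prefixes, and 76 of them were measured, with Mrpl41 and Mrps36 not analysed here.

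Total RNA of 3 D3 and 3 MIN6 samples was measured on 1 array each (Illumina Mouse WG-6 v2.0). D3 is a mouse embryonic stem (ES) cell line grown on gelatin with leukemia inhibitory factor (LIF) and labelled passage 21 (the study's methods give a later range of passages), and MIN6 is a mouse insulinoma line, a tumor model of the pancreatic β-cell that derives from a mouse with a viral T antigen under the insulin promoter, grown without LIF in medium with more serum and labelled passage 23. The labels name no treatment, and each group is 1 line, so that cell type, tumor origin, medium and passage cannot be told apart. The study calls the samples independent, but the sample labels name no cultures, and without separate cultures a p-value covers only the spread among these samples.

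The median signal of the arrays was between 134.4 and 188.1, and between 15563 and 16259 probes (34.4 to 35.9%) were above background, which here means a detection p under 0.01 against the negative controls of the array. Arrays of the same line correlated across probes at r = 0.993 to 0.994 and arrays of different lines at r = 0.836 to 0.838, where probes are not independent replicates. All 7 ES cell markers, among them Pou5f1 and Nanog, were above background on every D3 array, with 1 of them (Dppa5a) above background in MIN6 cells. All 7 β-cell markers, among them Ins2 and Pdx1, were above background on every MIN6 array and on no D3 array. Of 9 feeder and fibroblast markers, 4 (Thy1, Vim, Fn1 and Acta2) were above background on every D3 array and none on any MIN6 array, with summed signals of 6926 to 7451 on the D3 arrays and 1118 to 1213 on the MIN6 arrays, while Col1a1, Col1a2 and Col3a1 were at background in both lines. Of 7 acinar and ductal markers, Krt19 was above background on every MIN6 array and on 2 of 3 D3 arrays, and no marker was on every D3 array. The part of these other markers in the results below was not tested.

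Mitochondria translate a small set of messages, all for subunits of the respiratory chain and ATP synthase, on a ribosome of their own. Its ribosomal RNAs are transcribed from mitochondrial DNA, whereas every protein subunit is encoded in the nucleus, made in the cytosol and imported. Many of these subunits descend from bacterial ribosomal proteins, while others have no bacterial counterpart and were added in the mitochondrial lineage. In β-cells, ATP made by the respiratory chain couples glucose metabolism to insulin secretion, and pluripotent ES cells are known for a high rate of glycolysis.

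Promoters of such genes often lack a TATA box and hold sites for the factors NRF1, GABP (an ETS-family complex, also called NRF-2) and YY1. Of the 76 members 67 have a start site in the RefSeq promoter table (build GRCm38.p6), in which each window holds 250 bases before and 50 bases after a start. The ETS core CCGGAAG, searched on both strands as were all motifs, was found in the windows of 26 of these 67 members (38.8%), beside 12.9% of 17492 protein-coding genes and 9.93% of all 27025 genes of the table. The YY1 motif AAGATGGC was found in 17.9% of members, 3.57% of protein-coding genes and 3.19% of all genes, and the NRF1 core GCATGCGC in 11.9%, 3.94% and 3.05%. The E-box CACGTG was found in 7.46% of members, 8.91% of protein-coding genes and 8.09% of all genes. No motif is contained in another, and a match describes the letters and is not a binding site. The 120 bases before the start are shown for Mrps5 and Mrpl3, members with large decreases in MIN6 cells, and for Mrpl53 and Mrpl33, members that were higher in MIN6 cells, with motif matches on either strand in capitals and all other bases in lower case, each written 5′ to 3′ on the plus strand, which is the strand of these 4 genes. They lie at chr2:127587306-127587425 (Mrps5, no match), chr9:105053148-105053267 (Mrpl3, 1 ETS core), chr6:83108988-83109107 (Mrpl53, 2 ETS cores, of which the second is on the other strand) and chr5:31613831-31613950 (Mrpl33, the NRF1 core on the other strand). The last sequence is the whole stretch of 41 bases between the start sites of Mrps11 and Mrpl46, which run in opposite directions, at chr7:78783090-78783130, without a match.
Mrps5: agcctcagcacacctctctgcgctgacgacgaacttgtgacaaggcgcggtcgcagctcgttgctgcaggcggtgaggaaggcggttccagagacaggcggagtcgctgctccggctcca
Mrpl3: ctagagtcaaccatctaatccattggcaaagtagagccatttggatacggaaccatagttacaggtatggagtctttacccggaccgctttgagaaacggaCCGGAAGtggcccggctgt
Mrpl53: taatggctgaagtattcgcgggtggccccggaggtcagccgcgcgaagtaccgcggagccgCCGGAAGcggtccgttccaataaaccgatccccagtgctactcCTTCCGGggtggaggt
Mrpl33: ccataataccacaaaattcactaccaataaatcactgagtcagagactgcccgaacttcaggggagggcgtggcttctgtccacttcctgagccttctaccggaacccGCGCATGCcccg
Mrps11 to Mrpl46: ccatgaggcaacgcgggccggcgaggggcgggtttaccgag

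Most of the family was transcribed in both cell lines, and where the lines differed the members were mainly lower in MIN6 cells. Among the decreases were those of the subunit genes Mrps5, Mrpl15 and Mrpl47, of 4.64-, 3.93- and 3.65-fold, and among the increases those of Mrps34, Mrps21 and Mrpl48, of 2.10-, 1.94- and 1.84-fold. A gene was called upregulated or downregulated in MIN6 relative to D3 cells where the change was at least 1.5-fold and the adjusted p was under 0.05 (limma, with Benjamini-Hochberg adjustment across 45281 probes), on log2 signals quantile-normalized between the 6 arrays. For each gene the probe of highest mean log2 signal was used. By this rule 39 of 76 members (51.3%) were called, beside 34.5% of all 19057 genes. Of the members 7 (9.21%) were upregulated, beside 17.1% of all genes, and 32 (42.1%) were downregulated, beside 17.5% of all genes. The median log2 change (MIN6 minus D3, here and below) of the members was -0.41, with quartiles of -0.95 and 0.16, and that of all genes was -0.01. With these bulk measurements, fewer cells that express a gene and less RNA of it per cell cannot be told apart.

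Because 8204 of all genes were above background on no array, the members were also read against genes measured on every array. Of the 76 members 72 were above background on all 6 arrays, 3 on no array and 1 on the D3 arrays alone. Among the 72, 38 were called (52.8%), beside 56.2% of 7223 genes above background on all 6 arrays. The share of called members was thus close to that of the expressed genes. Of the 72 members 7 were upregulated (9.72%), beside 27.3% of expressed genes, and 31 were downregulated (43.1%), beside 28.9%. The median log2 change was -0.42 for the 72 members and -0.05 for the expressed genes. The values of the 3 D3 and the 3 MIN6 arrays did not overlap for 64 of the 72 members (88.9%), beside 81.7% of expressed genes. These shares describe the family, and members are not replicates of a condition.

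**Figure D1:**
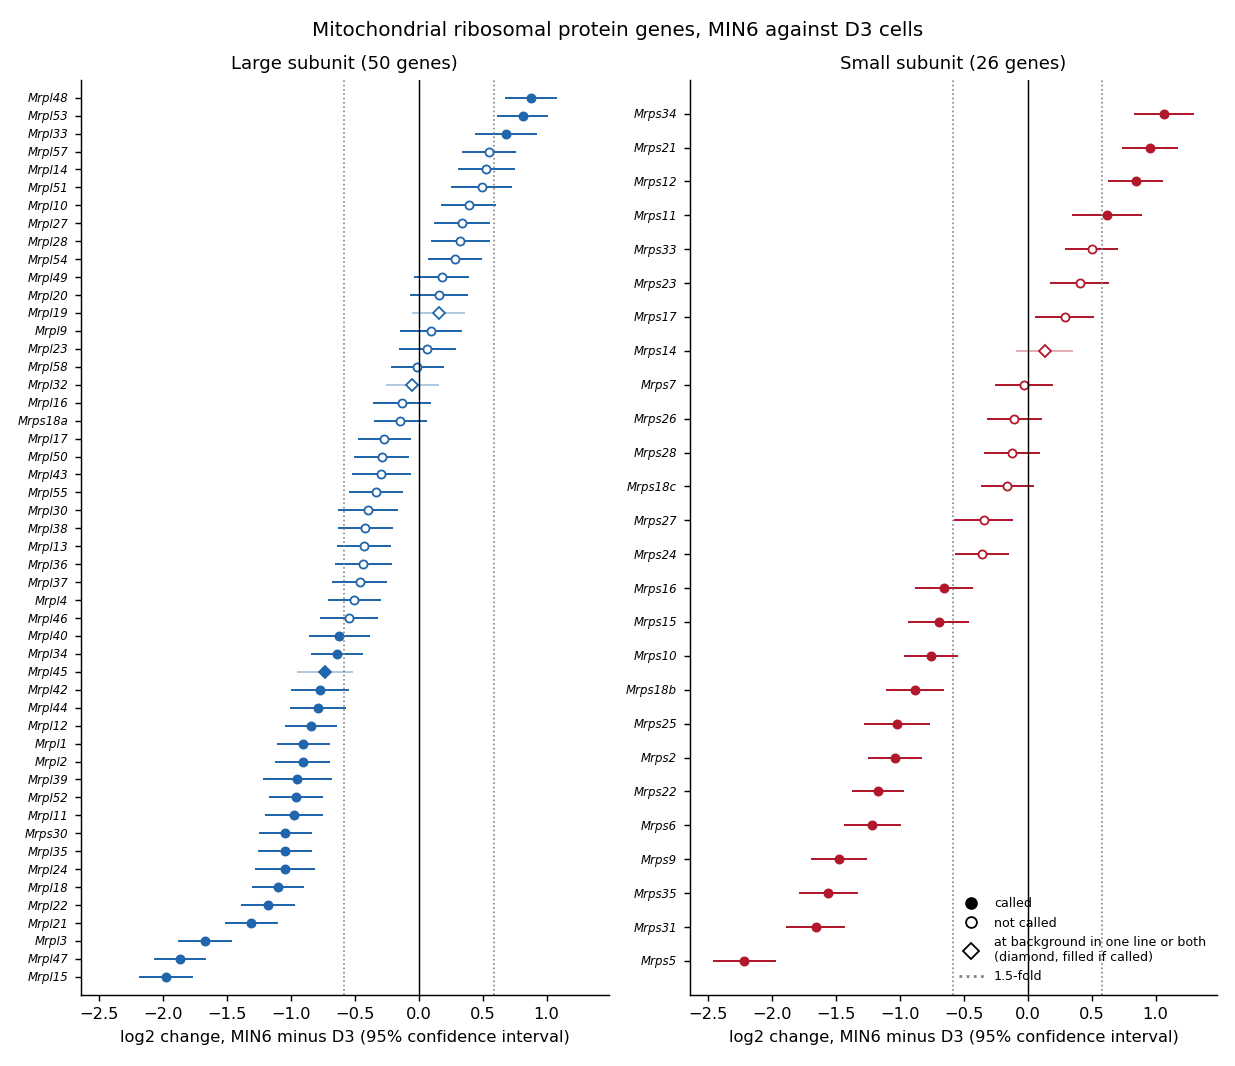
Log2 change (MIN6 minus D3) of the 50 large-subunit and 26 small-subunit members, each point with its 95% confidence interval from limma and dotted lines at 1.5-fold. Filled points were called and open points were not, and diamonds are the 4 members at background in one line or both. The 7 upregulated members lie at the top and the 32 downregulated members at the bottom, down to -2.22 for Mrps5.

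Many differences were small. An adjusted p under 0.05 was reached by 62 of the 76 members, 45 of them lower and 17 higher in MIN6 cells, and 23 of the 62 changed by under 1.5-fold. Among the 72 members above background on all 6 arrays 61 reached it, as did 5649 of the 7223 expressed genes. Changes of at least 2-fold were seen in 18 members (23.7%), 17 of them lower in MIN6 cells, beside 22.2% of all genes. All 18 were among the 72 (25%), beside 33.7% of expressed genes, so that large changes of both directions together were not more frequent in the family. By direction, 17 of the 72 were lower and 1 was higher by at least 2-fold, beside 1186 and 1248 of the 7223 expressed genes. For 24 members (31.6%) the whole 95% confidence interval lay within 1.5-fold in either direction, beside 56.1% of all genes, and for the 72 members the share was 29.2%, beside 29.1% of expressed genes. Mrpl58, a peptidyl-tRNA hydrolase that became a subunit and was earlier named Ict1, was among those with the least change, with a log2 change of -0.01 (95% confidence interval -0.21 to 0.19).

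In the large subunit, which forms the peptide bond, 20 of 50 members were downregulated, 3 were upregulated and 27 were not called, with a median log2 change of -0.42. Downregulated were thus 40% and upregulated 6%, beside 28.9% and 27.3% of expressed genes and 17.5% and 17.1% of all genes. Mrpl15, homologous to bacterial L15, had log2 signals of 13.46, 13.34 and 13.41 in D3 cells and of 11.46, 11.48 and 11.34 in MIN6 cells. All MIN6 arrays were far below all D3 arrays, a log2 change of -1.98 (SE 0.10, adjusted p = 2.06e-13, limma). Mrpl47, a homologue of bacterial L29 near the exit of the peptide tunnel, had values of 12.65, 12.72 and 12.62 in D3 cells and of 10.84, 10.78 and 10.76 in MIN6 cells. The groups were again apart, with a log2 change of -1.87 (SE 0.09, adjusted p = 4.10e-13). The mean of the 4 Mrpl47 probes gave -0.88, but only 2 of them were above background, at -1.87 and -1.40. Mrpl3, whose bacterial counterpart L3 reaches towards the peptidyl transferase center and whose promoter window holds the ETS core shown above, had values of 11.64, 11.63 and 11.78 in D3 cells and of 10.12, 10.01 and 9.91 in MIN6 cells. No array of one line reached the values of the other, and the log2 change was -1.67 (SE 0.10, adjusted p = 5.72e-12). It was -0.58 and no longer called with the mean of the 3 Mrpl3 probes, which include a probe above background on no array. Mrpl21, homologous to bacterial L21, had values of 12.85, 12.98 and 12.81 in D3 cells against 11.54, 11.55 and 11.63 in MIN6 cells. The groups did not overlap, and the log2 change was -1.31 (SE 0.10, adjusted p = 2.00e-10). The mean of the 2 Mrpl21 probes gave -0.64, but the second probe was above background on no array. Large-subunit members that fell by between 2.06- and 2.26-fold were Mrpl22, Mrpl18, Mrpl24, Mrpl35 and Mrps30.

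The 3 upregulated members of the large subunit changed by less than 2-fold. Mrpl48, which has no bacterial homologue, had log2 signals of 10.84, 10.88 and 10.86 in D3 cells and of 11.73, 11.78 and 11.71 in MIN6 cells. The arrays of each line lay within 0.1 of each other and the lines were apart, with a log2 change of 0.88 (SE 0.09, adjusted p = 6.47e-08, limma). Mrpl53, also without a bacterial homologue, had values of 12.18, 12.17 and 12.12 in D3 cells and of 12.99, 12.97 and 12.94 in MIN6 cells. The MIN6 arrays were all higher, and the log2 change was 0.81 (SE 0.09, adjusted p = 2.05e-07). Mrpl33, homologous to bacterial L33, had values of 12.39, 12.46 and 12.46 in D3 cells and of 13.20, 12.85 and 13.31 in MIN6 cells. All MIN6 arrays were higher, although the second lay closer to the D3 arrays than the others, and the log2 change was 0.68 (SE 0.11, adjusted p = 2.73e-05). Without the third MIN6 array the change of Mrpl33 was 0.47, under 1.5-fold, and the call was lost. Mrpl17, the large-subunit member with the highest probe signal, was not called, with values of 13.10, 13.20 and 13.10 in D3 cells and of 12.94, 12.81 and 12.84 in MIN6 cells. Its groups were apart by a small step, a log2 change of -0.27 (95% confidence interval -0.47 to -0.07).

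**Figure D2:**
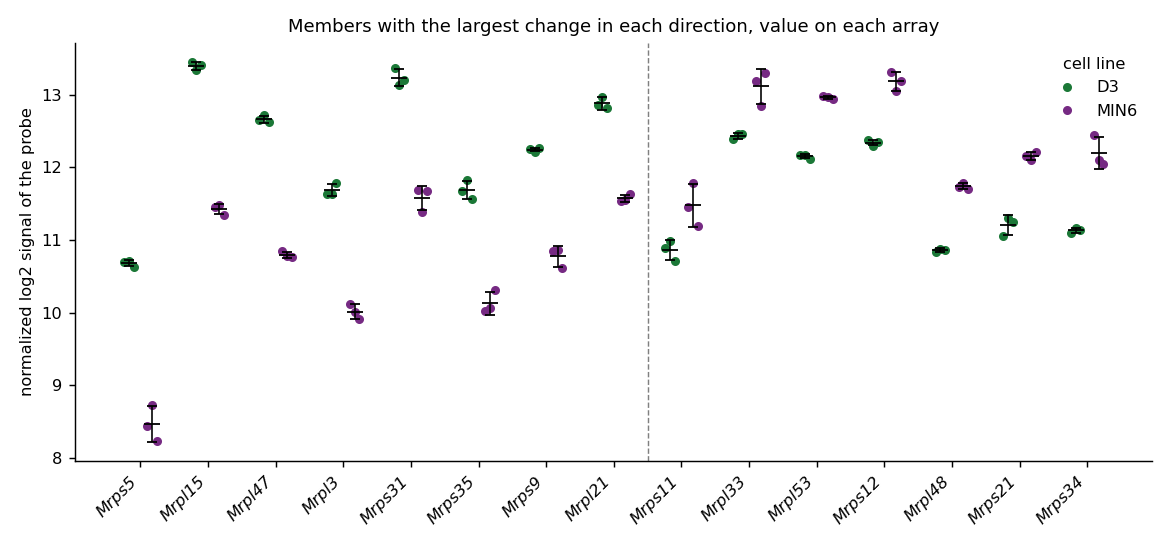
Normalized log2 signal on each array (points) with the mean and SD of 3 arrays (bars) for the 8 members with the largest decrease (left of the dashed line) and the 7 upregulated members (right), D3 in green and MIN6 in purple. For each of these members the values of the lines do not overlap, from Mrps5 (10.63 to 10.71 in D3 against 8.22 to 8.73 in MIN6 cells) to Mrps34 (11.09 to 11.17 against 12.05 to 12.45). Heights are not comparable between members, since each has its own probe.

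In the small subunit, which binds and decodes the message, 12 of 26 members were downregulated, 4 were upregulated and 10 were not called, with a median log2 change of -0.35. Downregulated were thus 46.2% and upregulated 15.4%, beside 28.9% and 27.3% of expressed genes and 17.5% and 17.1% of all genes. Mrps5, homologous to bacterial S5 at the entry of the message channel, had the largest change of the family with the chosen probes and quantile normalization. Its log2 signals were 10.69, 10.71 and 10.63 in D3 cells and 8.44, 8.73 and 8.22 in MIN6 cells. The lines were separated by many times the spread among the arrays of either, with a log2 change of -2.22 (SE 0.11, adjusted p = 5.67e-13, limma). With the authors' processed values Mrps5 was at -1.93 and Mrpl15 at -2.03, and with the mean of all probes they were at -1.38 and -1.64. Mrps31, a subunit without a bacterial homologue, had values of 13.37, 13.14 and 13.21 in D3 cells and of 11.69, 11.39 and 11.67 in MIN6 cells. The groups did not overlap, and the log2 change was -1.66 (SE 0.11, adjusted p = 2.54e-11). Mrps35, another mitochondria-specific subunit, had values of 11.68, 11.82 and 11.57 in D3 cells and of 10.02, 10.06 and 10.31 in MIN6 cells. All MIN6 arrays were lower, with a log2 change of -1.56 (SE 0.11, adjusted p = 6.41e-11). Mrps9, whose bacterial counterpart S9 contacts the tRNA in the P site, had values of 12.26, 12.22 and 12.26 in D3 cells and of 10.84, 10.87 and 10.61 in MIN6 cells. The lines were apart, and the log2 change was -1.47 (SE 0.10, adjusted p = 5.71e-11). Mrps6, Mrps22, Mrps2 and Mrps25 fell by between 2.03- and 2.32-fold.

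The small subunit held Mrps34, the 1 member upregulated by at least 2-fold in this fit. Mrps34, a mitochondria-specific subunit needed for the stability of the small subunit, had log2 signals of 11.09, 11.17 and 11.14 in D3 cells and of 12.45, 12.11 and 12.05 in MIN6 cells. The MIN6 arrays were all higher, with a log2 change of 1.07 (SE 0.11, adjusted p = 3.70e-08, limma). It was 0.95, under 2-fold, without the first MIN6 array, and with cyclic loess Mrps34 (1.22), Mrps21 (1.1) and Mrpl48 (1.02) all passed 2-fold. Mrps21, homologous to bacterial S21, had values of 11.05, 11.31 and 11.25 in D3 cells and of 12.16, 12.10 and 12.21 in MIN6 cells. No value was shared between the lines, and the log2 change was 0.95 (SE 0.10, adjusted p = 5.39e-08). Mrps12, whose bacterial counterpart S12 sits in the decoding center, had values of 12.38, 12.30 and 12.35 in D3 cells against 13.31, 13.05 and 13.20 in MIN6 cells. The groups were separate, and the log2 change was 0.84 (SE 0.10, adjusted p = 2.94e-07). Mrps11, homologous to bacterial S11 on the platform of the subunit, had values of 10.89, 10.98 and 10.71 in D3 cells and of 11.46, 11.79 and 11.19 in MIN6 cells. The groups did not overlap, but the spread was wider than for the other upregulated members, and the log2 change was 0.62 (SE 0.13, adjusted p = 0.000317). The call of Mrps11 was lost without the third D3 array (0.54) and without the second MIN6 array (0.47). Mrps24, the small-subunit member with the highest probe signal, was not called, with values of 13.44, 13.50 and 13.31 in D3 cells and of 13.07, 13.11 and 12.99 in MIN6 cells. The MIN6 arrays were all lower, with a log2 change of -0.36 (95% confidence interval -0.56 to -0.15).

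The Mrps18 paralogues encode relatives of bacterial S18, and their products take different places in the ribosome. Mrps18b was downregulated, with log2 signals of 12.67, 12.38 and 12.51 in D3 cells and of 11.65, 11.75 and 11.52 in MIN6 cells. The lines were apart, with a log2 change of -0.88 (SE 0.10, adjusted p = 3.46e-07, limma). Mrps18a, the large-subunit paralogue, had values of 10.85, 10.80 and 10.94 in D3 cells and of 10.67, 10.76 and 10.73 in MIN6 cells. Mrps18c had values of 12.27, 12.42 and 12.31 in D3 cells and of 12.10, 12.18 and 12.24 in MIN6 cells. Neither passed the test, with log2 changes of -0.14 (95% confidence interval -0.34 to 0.05) and -0.16 (-0.36 to 0.04). The differences between the paralogues were not tested.

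The members were also divided by origin. Of 44 members with a bacterial homologue 20 were downregulated and 4 upregulated, with a median log2 change of -0.43. Of 28 mitochondria-specific members 11 were downregulated and 3 upregulated, with a median of -0.38. Downregulated were 45.5% and 39.3% of these classes, beside 28.9% of expressed genes and 17.5% of all genes. Upregulated were 9.09% and 10.7%, beside 27.3% of expressed genes and 17.1% of all genes. Called in either direction were 54.5% and 50%, close to the 56.2% of expressed genes, beside 34.5% of all genes. Of the 44 and 28 members, 41 and 27 were above background on all 6 arrays. The remaining 4 members (Mrpl55, Mrps28, Mrps18a and Mrps18b) were assigned to neither class, and 1 of them, Mrps18b, was downregulated.

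For 4 members at least one line gave no level above background. Mrpl45, a subunit at the tunnel exit that faces the inner membrane, had log2 signals of 8.08, 8.01 and 8.22 in D3 cells, all above background, and of 7.28, 7.49 and 7.35 in MIN6 cells, none above background. Since the MIN6 level is only a bound, the decrease of Mrpl45 was at least 1.28-fold, taken against the lowest signals above background on those arrays (measured means 8.10 and 7.37, adjusted p = 2.62e-06, limma). Its log2 change of -0.73 was -1.60 with normexp background correction, and the call was lost with the authors' processed values and with the mean of its 2 probes. The second of these probes was above background on no array. Mrpl32, Mrps14 and Mrpl19 were above background on no array, and no fold change is given for them.

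Genes with several probes give repeated readings of the same gene on the same arrays. Of the 132 probes 51 were downregulated, 11 were upregulated and 70 were not called, so that 47.0% were called beside 25.9% of all probes. However, 107 of the 132 were above background on all 6 arrays, whereas each array had 34.4 to 35.9% of all probes above background. The called share of expressed probes was not counted. Among genes above background on all 6 arrays the share of the members was no higher, at 52.8% beside 56.2%. Of the members 33 had more than 1 probe, and 27 had more than 1 probe above background on some array. In 17 of these 27 all such probes gave the same call, and in 10 some were called and others not. No member had probes called in opposite directions. Below the 1.5-fold threshold, however, measured probes differed in sign for Mrpl51 (0.49, -0.30 and -0.17), Mrpl10 (0.39 and -0.15) and Mrpl9 (0.10 and -0.36), none of them called. For Mrpl51 the probes at 0.49 and -0.30 both had an adjusted p under 0.05 (limma). All 7 probes of Mrpl15 were downregulated, with log2 changes between -2.22 and -0.82. The 3 measured probes of Mrps31 were closer together, at -1.66, -1.70 and -1.73, and those of Mrps18b were at -0.88, -1.13 and -1.32. Both probes of Mrps12 (0.84 and 0.88) and both of Mrps11 (0.62 and 0.74) were upregulated.

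**Figure D3:**
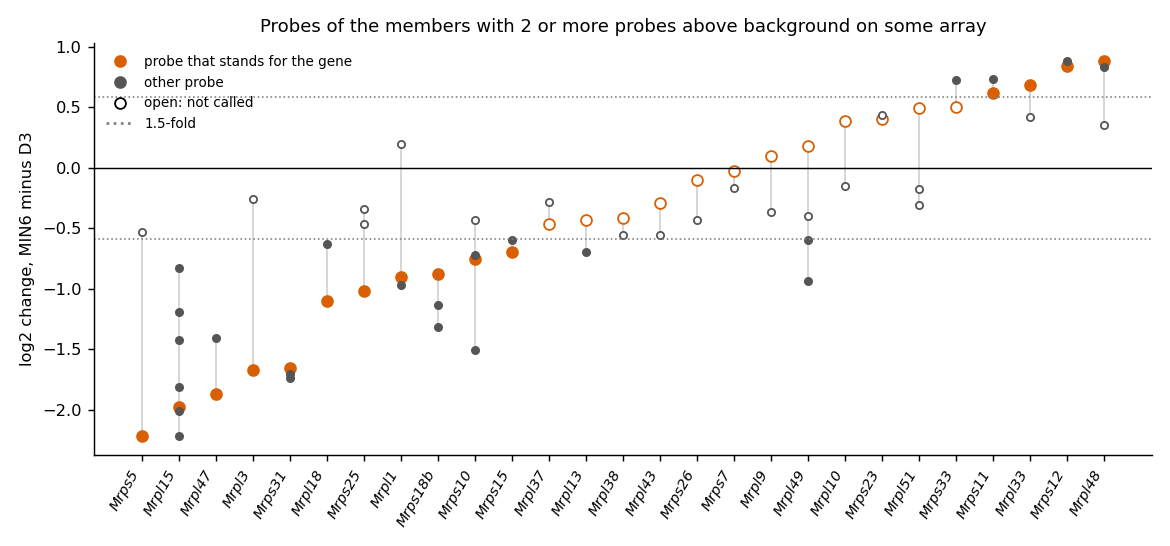
Log2 change (MIN6 minus D3) of each probe of the 27 members with at least 2 probes above background on some array, members ordered by the probe that stands for the gene (orange), with filled points for called probes and dotted lines at 1.5-fold. The 7 probes of Mrpl15 are all downregulated, whereas the probes of Mrpl3 lie at -1.67 and -0.26, and no member has filled points on both sides of 0.

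For the 10 members with differing calls the size of the change depended on the probe. For Mrpl3, the second measured probe had log2 signals of 10.53, 10.70 and 10.67 in D3 cells and of 10.49, 10.28 and 10.35 in MIN6 cells, a log2 change of -0.26 against -1.67 for the first. For Mrps5, the second probe was near background, between 7.94 and 8.10 in D3 cells and between 7.19 and 7.76 in MIN6 cells, with a change of -0.53. Both second probes moved in the direction of the first without reaching 1.5-fold. For Mrps25 the changes were -1.02 (called), -0.46 and -0.34, and for Mrps10 they were -0.76, -0.72 and -1.51 (all called), with a dimmer probe at -0.43. For Mrpl1 they were -0.90 and -0.97 (both called), with a probe at 0.20 that was above background on 1 array. The 2 probes of Mrpl13 were at -0.43 and, called, at -0.70. The upregulated genes Mrpl33 (0.68 and 0.42) and Mrpl48 (0.88, 0.83 and 0.35) each had a probe under 1.5-fold, and Mrps33, not called at 0.50, had a second probe called at 0.73. Mrpl49 was the only one of the 10 whose chosen probe and called probes differed in sign. Its chosen probe had log2 signals of 11.20, 11.30 and 11.47 in D3 cells and of 11.53, 11.46 and 11.52 in MIN6 cells, values that overlap, with a change of 0.18 (adjusted p = 0.182, limma). The other 3 probes were lower on every MIN6 array than on any D3 array, with changes of -0.39, -0.59 and -0.94, of which the last 2 were called. The transcripts that each probe detects were not examined.

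The motif shares were also counted by call, as a description of few genes. The ETS core was in the promoter windows of 5 of 6 upregulated members with a window (83.3%), of 9 of 30 downregulated members (30.0%) and of 12 of 31 members not called (38.7%). Both Mrpl53 and Mrpl33, whose sequences are shown above, are among the 5, the latter with a match outside the bases printed. The YY1 motif was in 2 of 6, 2 of 30 and 8 of 31, and the NRF1 core in 1 of 6, 3 of 30 and 4 of 31. Upregulated and downregulated members thus both held the ETS core, and the downregulated Mrps5 held none of the 4 motifs in its window. Binding to these promoters was not measured.

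Several members share a promoter region with a neighbor that is transcribed in the opposite direction. Of the 67 members 23 (34.3%) start within 1000 bases of a protein-coding gene that runs the other way, beside 1483 of 17492 protein-coding genes (8.48%). The member was called in 9 of these 23 cases, in which Mrps11 and Mrpl46 count from either side. The neighbor was measured in 20 cases and called in 10 of them (4 upregulated and 6 downregulated), and both genes were called in 1. The counts of called members and of called neighbors may be read beside the 34.5% of all genes and 56.2% of expressed genes that were called. For pairs with both genes called no such share over all genes was counted. The case with both called was Mrpl18 with Tcp1, which encodes a subunit of the cytosolic chaperonin, with starts 238 bases apart and log2 changes of -1.10 and -0.59. Beside the members with the largest decreases, Ndufb5, a complex I subunit whose start lies 308 bases from that of Mrpl47, had a change of -0.40, and Zfp661, 332 bases from Mrps5, had a change of -0.58. Both were lower with an adjusted p under 0.05 (limma), but neither reached 1.5-fold, Zfp661 narrowly, so neither was called. Sars2, the mitochondrial seryl-tRNA synthetase that starts 147 bases from Mrps12, had a change of 0.22 and was above background on 1 of 3 D3 arrays. In the opposite case, Mitd1 (-1.73) beside Mrpl30 (-0.40), Ska3 (-1.30) beside Mrpl57 (0.55) and Twnk (-1.04), the mitochondrial DNA helicase, beside Mrpl43 (-0.29) were downregulated next to members that were not called. Upregulated next to such members were Helq (0.85) beside Mrps18c (-0.16), Cyb5rl (0.83) beside Mrpl37 (-0.46) and Tmem63b (0.62) beside Mrpl14 (0.53). These pairs were named after their values had been seen.

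Mrps11 and Mrpl46 are neighbors of this kind within the family, with starts 42 bases apart around the sequence shown above. Mrps11 was upregulated by 0.62, with the values given above. Mrpl46, a mitochondria-specific large-subunit gene, had log2 signals of 11.74, 11.79 and 11.96 in D3 cells and of 11.28, 11.44 and 11.13 in MIN6 cells. Its MIN6 arrays were all below its D3 arrays, with a log2 change of -0.55 (SE 0.11, adjusted p = 0.000171, limma), which is under 1.5-fold. In MIN6 relative to D3 cells the 2 genes thus moved in opposite directions, and the difference between their changes was not tested.

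**Figure D4:**
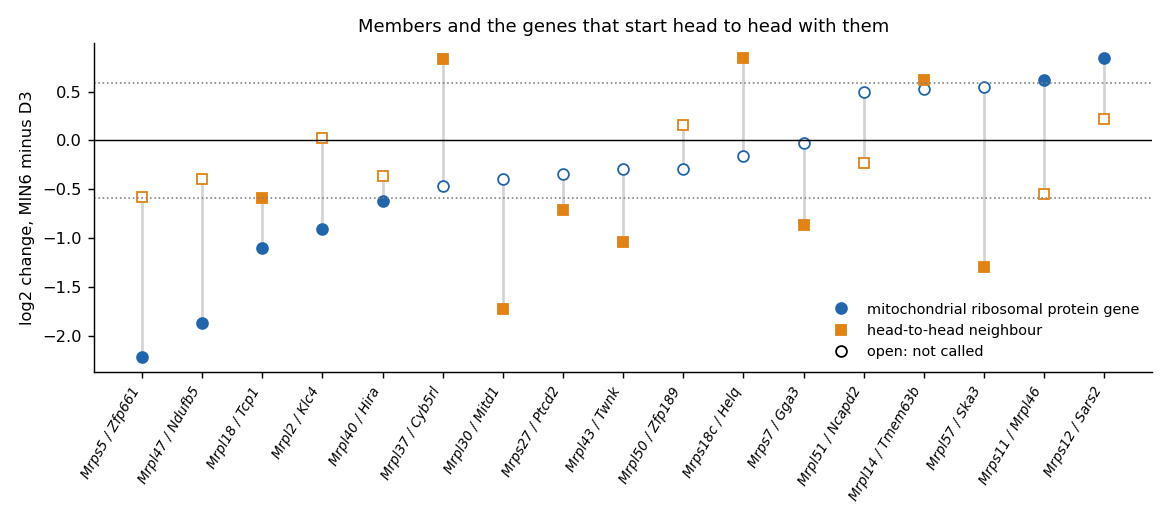
Log2 change (MIN6 minus D3) of the members (blue circles) and of the genes that start head to head with them within 1000 bases (orange squares), for 17 pairs in which each gene was above background on some array and Mrps11 with Mrpl46 is drawn once. Filled symbols were called and dotted lines mark 1.5-fold. In 1 pair, Mrpl18 with Tcp1, both symbols are filled.

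Other genes of mitochondrial protein synthesis were lower in MIN6 cells where they were called, with few exceptions. Of 4 further ribosomal subunits without the Mrpl or Mrps prefix 3 were downregulated. Ptcd3, a small-subunit protein, had a log2 change of -1.60 (SE 0.10, adjusted p = 7.94e-12, limma), Dap3, the GTP-binding subunit, had -0.63, and Gadd45gip1, a large-subunit protein at background in MIN6 cells, was at least 1.69-fold lower. Of 14 translation factors 8 were downregulated and none was upregulated, with a median of -0.65. Among them were both elongation factor G genes, Gfm1 (-1.11) and Gfm2 (-1.38, which acts in ribosome recycling), Tsfm (-1.23), the exchange factor of the elongation factor Tu, and Oxa1l (-1.27), which inserts new proteins into the inner membrane. Of 22 genes of ribosome assembly and rRNA modification 7 were downregulated and none was upregulated, with a median of -0.37. The GTPases Mtg1 (-2.35) and Gtpbp10 (-1.96), which act in assembly of the large subunit, the pseudouridine synthase Rpusd4 (-1.19) and the small-subunit rRNA methyltransferase Tfb1m (-1.01) changed most. Of 21 aminoacyl-tRNA synthetase genes and related subunits 10 were downregulated, among them Vars2 (-1.82), Mars2 (-1.72) and Kars (-1.78), which also encodes the cytosolic enzyme, and 2 were upregulated. The 2 were Gatc (0.70) and Lars2 (2.12), which was above background on 1 of 3 D3 arrays. Downregulated genes made up 57.1% of the translation factors, 47.6% of the synthetase list and 31.8% of the assembly genes, beside 28.9% of expressed genes and 17.5% of all genes. Upregulated genes made up 9.52% of the synthetase list and none of the other lists here, beside 27.3% of expressed genes and 17.1% of all genes. The downregulated share of the assembly genes was thus not far from that of expressed genes. It is taken over all 22, of which 19 were above background on all 6 arrays. Called in either direction were 31.8% of the assembly genes, beside 56.2% of expressed genes and 34.5% of all genes.

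Genes that transcribe mitochondrial DNA or regulate its nuclear partners were also lower where they were called. Of 15 genes of mitochondrial transcription and genome maintenance 9 were downregulated and none was upregulated, with a median log2 change of -0.78. The largest changes were in Fastkd5 (-1.95) and Elac2 (-1.46), which act in RNA processing, Mterf1a (-1.59), a termination factor, and Tefm (-1.31), an elongation factor. Of 14 transcription factors and coactivators of nuclear genes for mitochondria 6 were downregulated and none was upregulated, with a median of -0.38. Pprc1, a coactivator related to PGC-1, had a change of -2.07 (SE 0.10, adjusted p = 1.10e-13, limma), and Gabpa, the DNA-binding subunit of GABP, had a change of -1.88 (SE 0.12, adjusted p = 1.20e-11). Sp1 (-1.23) and the nuclear receptor Esrra (-1.16) were also downregulated. Downregulated genes were 60% of the first list and 42.9% of the second, beside 28.9% of expressed genes and 17.5% of all genes. The absence of upregulated genes in both lists stands beside 27.3% of expressed genes and 17.1% of all genes. Nrf1 was not called (-0.24), and Yy1 was at background on all arrays.

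Other families with related tasks are given beside the members, over genes above background on every array. Of 78 respiratory chain and ATP synthase genes above background on all 6 arrays, 9 were downregulated (11.5%) and 11 upregulated (14.1%), with a median log2 change of 0.08. Of 54 cytosolic ribosomal protein genes, 15 were downregulated (27.8%) and none was upregulated, with a median of -0.30. For the members the shares were 43.1% and 9.72%, with the median of -0.42 given above. No test between families was run, so these are descriptions of each.

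**Figure D5:**
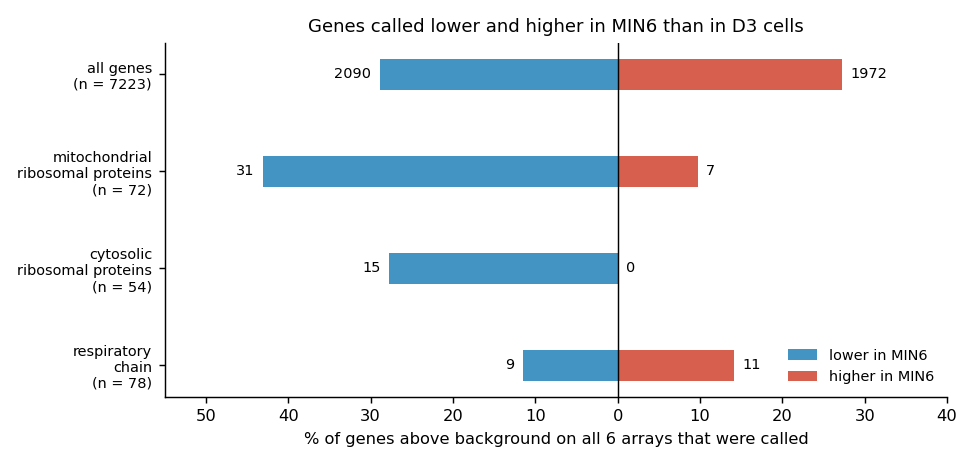
Share of genes (% of those above background on all 6 arrays) that were downregulated (blue, to the left) and upregulated (red, to the right) in MIN6 relative to D3 cells, with the number of genes at each bar. Mitochondrial ribosomal protein genes have 31 of 72 downregulated and 7 upregulated, respiratory chain genes 9 and 11 of 78, cytosolic ribosomal protein genes 15 and 0 of 54, and all genes 2090 and 1972 of 7223.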

How the data were processed

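Intensities on a linear scale were deposited without normalization or background subtraction, for 45281 probes on 6 arrays. The deposited detection p-value column holds 1 minus p (its rank correlation with the signal was 0.983 to 0.987) and was converted back. The processed table holds log2-like values that the authors quantile-normalized with lumi. The transformation behind it is not stated in the sources, its median is 7.86 on each array, and it served as an alternative.

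Here the intensities were quantile-normalized between arrays, taken to log2 and fitted with limma 3.58.1 (lmFit and eBayes, MIN6 minus D3, no block) in R 4.3.3. Benjamini-Hochberg adjustment was over all probes, and the block tried below was a fixed term in the same fit. Of the probes 34885 have 1 gene symbol in the platform annotation, 18 have several and 10378 have none. All 76 members matched a RefSeq gene by Entrez ID. Promoter sequences are from RefSeq (GRCm38.p6). With several start sites, a motif in any window counted. Python 3.11.15 with pandas 2.3.3, numpy 2.4.6 and matplotlib 3.10.9 served for motifs and figures. The fit was also run on simulated signals with independent normal noise and known changes, and no result above rests on that run. Precision is limited by the 3 arrays per line.

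The members and gene lists were chosen with earlier results of these data known. Values on each array are given for up to 8 called members with the largest change in each direction that were above background on all 6 arrays, members above background in 1 line, the member with the highest probe signal in each subunit, the Mrps18 paralogues and members whose probes gave different calls, and of each other list up to 4 called genes are named. Other genes were named after their values had been seen. Symbols of the other lists without a named probe, among them Aurkaip1, Mtrfr and Malsu1, were not analysed here. Alternatives were cyclic loess, median scaling, normexp background correction with neqc at an offset of 16, a detection filter, a replicate block, the processed values, each array left out, the mean of all probes of a gene, the mean of its probes above background (added after seeing the data), the methods' Student test, no fold threshold and at least 2-fold.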

Additional observations from a re-analysis of the deposited data

How the results depend on the processing

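The direction of the family's median and the excess of lower over higher calls held under every alternative run. The median log2 change of the members, -0.41, was -0.26 with cyclic loess, under which 26.3% of the called members were upregulated (10 of 38) in place of 17.9%. With each array left out it lay between -0.42 and -0.38. Genes called higher numbered 17 with no fold threshold and 1 at 2-fold, and genes called lower 17 at 2-fold. Probes called higher numbered 24 and 1, and probes called lower 77 and 28, under these settings. With each array left out, 6 to 8 genes were called higher and 30 to 33 lower, and 10 to 12 and 50 to 52 probes. The called counts of the other lists then ranged from 12 to 13 (synthetases), 2 to 3 (subunits without the prefix), 6 to 7 (assembly), 8 to 10 (transcription), 8 to 9 (translation factors) and 6 to 7 (transcription factors). With the mean of all probes 1 subunit without the prefix was called in place of 3. The methods' Student test gave 7 genes higher and 32 lower unadjusted, and 6 and 32 after Benjamini-Hochberg adjustment.

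Of 378 values of 27 named members under 14 alternatives, 363 kept their call, and none that was called reversed in direction. The 363 include uncalled values that changed sign, as for Mrpl49 below and for Mrps18a (-0.14, and 0.0015 with cyclic loess). Besides the calls lost without 1 array (Mrps11 and Mrpl33), the mean of all probes ended the calls of Mrpl1, Mrpl3 (-0.58), Mrpl33, Mrpl45, Mrpl48 and Mrps25. The same mean lowered the size of Mrps5 to -1.38, Mrpl47 to -0.88 and Mrpl21 to -0.64. For Mrpl3, Mrpl21, Mrpl45, Mrpl47, Mrpl48 and Mrps25 it includes probes above background on no array. With the mean of the probes above background, Mrpl1 (-0.56) and Mrpl33 (0.55) also lost their calls, while Mrps5 was again at -1.38 and Mrpl3, still called, at -0.96. Mrps33 gained a call in 3 of the 14 alternatives. Mrpl49, not called, was 0.18 with its chosen probe and -0.44 with the mean. With the replicate block the counts were the same, 7 genes higher and 32 lower and 11 and 51 probes. Deviations of same-numbered samples from their group means correlated at 0.0263, 0.00417 and -0.0566 over 12261 probes. Samples of different numbers correlated at -0.0529 to 0.046. With 3 arrays per line these values cannot show whether same-numbered samples were processed together. No slide block was fitted because the files name no slide.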
